A study of Danio rerio with 12 samples.

Results

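Among 11 RNA libraries from adult zebrafish (Danio rerio) brain, 3 held the epidermal keratin krt5 at levels far above the rest, and they are described here against the other 8. The keratin-rich libraries were chosen by krt5 itself: a scaled count of 5000 or more, where a scaled count is the number of fragments assigned to a gene divided by 1 size factor per library in the authors' table, as its step-like values show. They were control replicate 4, MeHg replicate 4 and MeHg replicate 5. All libraries came from fish of the EK strain in the third generation of a lineage, labelled F3, where the exposed eggs were F1. The control lineage descended from eggs held for 24 h at 0 µM methylmercury (MeHg, an organic mercury compound) with the ethanol vehicle, and the MeHg lineage from eggs held at 0.03 µM in the same vehicle. The F2 and F3 fish had no exposure of their own. The 11 libraries comprised 5 of the control lineage, 1 of them keratin-rich, and 6 of the MeHg lineage, 2 of them keratin-rich. The labels name brain as the tissue in all of them and do not say how many animals a library holds, so a spread between libraries may be partly technical.

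The outer skin of fish is a living epithelium. Its basal layer rests on a basement membrane, divides, and depends on the transcription factor tp63 and on keratins such as krt5 and krt91. Its surface layer is sealed by tight junctions and carries other keratins, while mucus cells and ionocytes sit among these cells. Neurons and glia, the main cells of the brain, are not known for these epidermal keratins. The brain label held in all 11 libraries: snap25a, a synaptic gene, stood at 13824 or more in every one. In libraries made from whole tissue, fewer cells of a type and less RNA per cell cannot be told apart.

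Because the groups were chosen by a measured value, every comparison between them is a description without a test. A gene is called higher where every keratin-rich library exceeded every other library, and lower in the opposite case. Differences are log2 differences of scaled count + 1, adjusted for lineage in limma, with the standard error (SE) of that fit. This scale understates the difference of genes with low counts. Implied depth was 2062482 to 7503932 fragments per library, and the 3 keratin-rich libraries stood at 2876856, 4138448 and 7503932, within the range of the others apart from the last. A count of 3 fragments corresponded to a scaled count of 2.01 to 6.86, depending on the library.

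krt5 (ENSDARG00000058371) stood at 21013 in control replicate 4, 8643 in MeHg replicate 4 and 22787 in MeHg replicate 5. In the other 8 libraries it ran from 33.5 to 2056 with a median of 134. The library nearest to the limit from above was MeHg replicate 4, and the nearest from below was MeHg replicate 8 at 2056, so the latter also carried more krt5 than the 7 below it, whose highest value was 378. krt91 (ENSDARG00000036830), a second basal-layer keratin, was 24512, 8194 and 17382 in the keratin-rich libraries, in the same order. In the others it ran from 81.8 to 1782 with a median of 174. The 2 keratins together made up 1.02%, 0.359% and 0.800% of all scaled counts in the keratin-rich libraries. They made up 0.00242% to 0.0788% in the others.

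**Figure D1:**
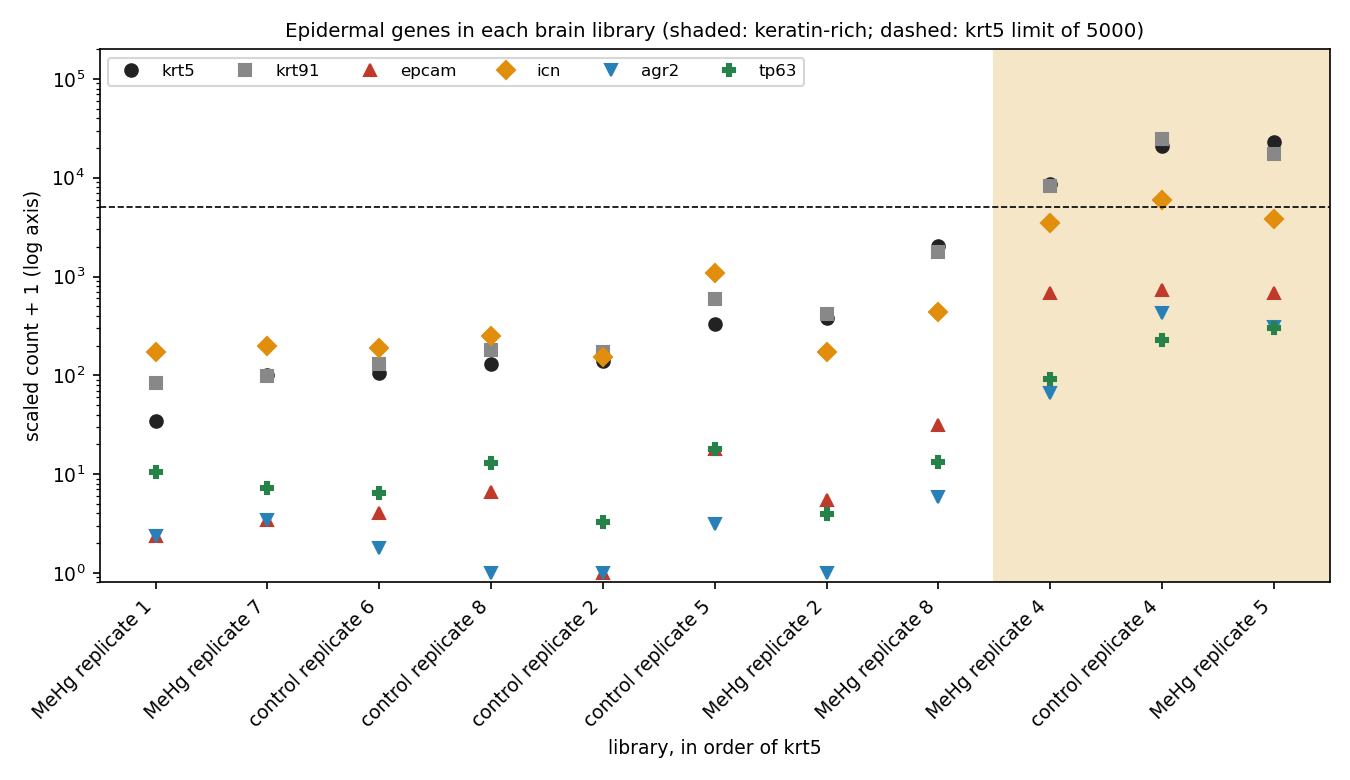
Scaled count + 1 on a log axis for 6 epidermal genes in each of the 11 libraries, ordered by krt5, with the 3 keratin-rich libraries shaded and the limit of 5000 dashed. krt5 and krt91 run close together across all libraries, and epcam, agr2 and tp63 are near the floor in the unshaded libraries, with epcam at 676 to 729 in the shaded ones.

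Per transcript length, these skin genes reached the level of the synaptic gene snap25a. In FPKM, the authors' measure of fragments per transcript length and library depth, the keratin-rich libraries held icn, a calcium-binding S100 protein of fish epidermis, at 3278 ± 1082 (SD, n = 3), krt91 at 2140 ± 1060 and krt5 at 1507 ± 662. snap25a was at 1322 ± 329 FPKM in the same libraries. In the other libraries icn was at 242 ± 231 FPKM (SD, n = 8), krt91 at 54.7 ± 73.4 and krt5 at 35.3 ± 56.7, against 1390 ± 182 for snap25a. The group means of snap25a differed by less than their spread, and those of icn and krt91 by more; krt5 set the groups.

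The filter asked for a scaled count of 10 or more in 3 or more libraries, and 17872 genes met it. Among these, 808 were higher in every keratin-rich library than in every other library, which is 4.52% of those tested. The opposite held for 391 genes, 2.19%. With a difference of at least 2-fold added, 678 genes were higher (3.79%) and 13 were lower (0.0727%). The higher genes had a median difference of 2.23 on the log2 scale, which is 4.69-fold, and 89 of them exceeded 32-fold. The lower genes had a median of -0.43, which is 1.34-fold. The higher genes thus differed by large folds and the lower genes by small ones. Of the 808 higher genes, 336 passed the filter only through the keratin-rich libraries, with fewer than 3 of the other libraries at 10 or more. Over all tested genes 902 passed in this way, so the filter favoured a call of higher for them without fixing it. The 336 are a far larger share of those 902 than 4.52%. For list and family members that passed in this way, 336 of 902 is the share to set beside their counts.

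The 678 genes took 4.03% of all scaled counts in control replicate 4, 2.48% in MeHg replicate 4 and 2.92% in MeHg replicate 5. In the other libraries they took 0.360% to 0.570%. Control replicate 4 was the highest of the 3 for 420 of the 678 genes, MeHg replicate 5 for 135 and MeHg replicate 4 for 123. Of the 675 genes seen at all in the other 8 libraries, control replicate 5 was the highest of the 8 for 222 and MeHg replicate 8 for 186. Without MeHg replicate 5 the counts became 1389 higher and 1381 lower, and without control replicate 5 they became 1189 and 1005. Without control replicate 4 the lower count became 641, and without MeHg replicate 4, which also held muscle and pituitary RNA, the counts became 970 higher and 600 lower. The number of lower genes also moved with the scaling: 222 were lower on library totals and 200 with median ratio scaling, and higher genes then made up 80.7% and 81.8% of the non-overlapping genes against 67.4%. Of the 391 lower genes 161 were also lower on library totals and 199 with median ratio scaling.

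**Figure D2:**
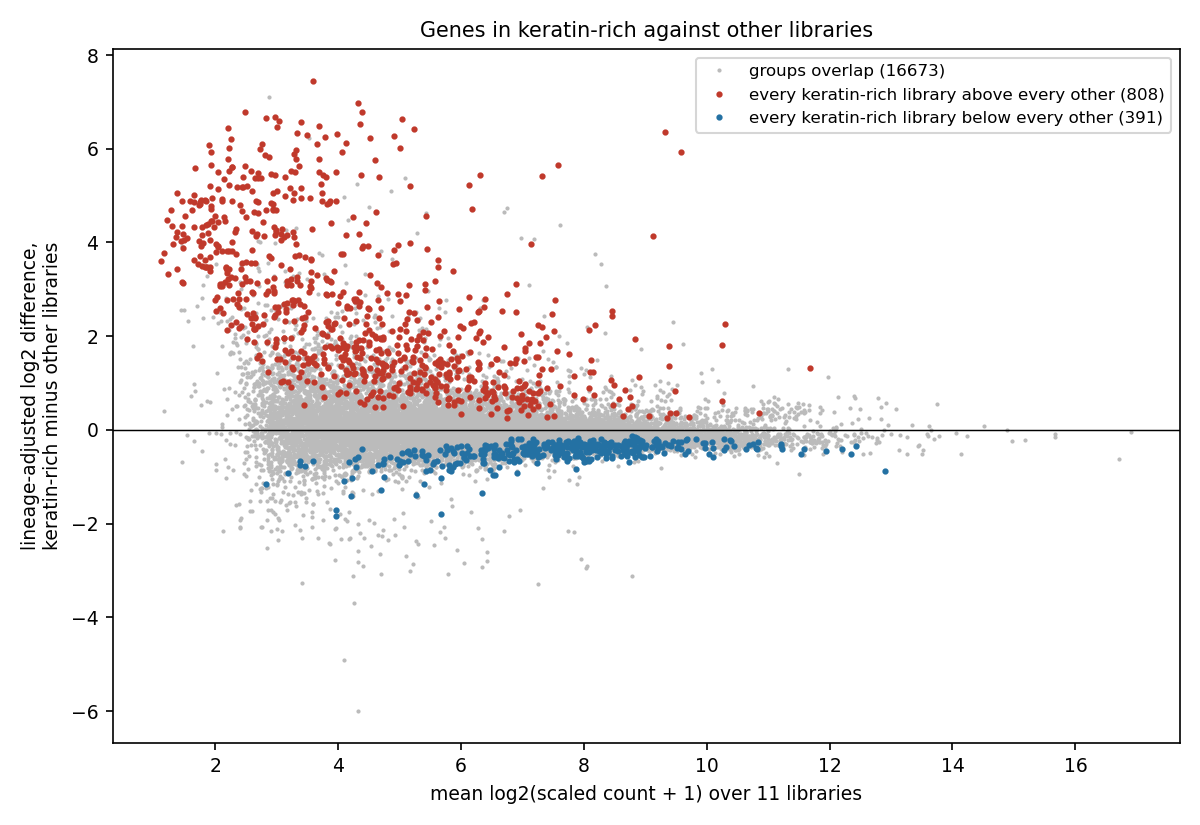
Each point is 1 of 17872 genes, with the mean log2(scaled count + 1) over 11 libraries on the x axis and the lineage-adjusted log2 difference between keratin-rich and other libraries on the y axis. Genes higher in every keratin-rich library (808, red) reach differences close to 7 or just above it and most lie left of the middle of the cloud, and genes lower in every keratin-rich library (391, blue) lie close to 0 with a lowest value of -1.85.

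Most keratins of stratified epithelium were higher, and the simple-epithelium keratins overlapped. Of 19 keratin genes in the table, 13 passed the filter and 9 were higher without overlap, beside 4.52% of all genes; 4 of the 9 passed only through the keratin-rich libraries. Apart from krt5, which set the groups, 4 of the 8 keratins that passed through other libraries as well were higher. The 4 include krt91, a marker given with krt5 for this comparison. The surface-layer keratin krt4 was 4182, 1603 and 1969 in control replicate 4, MeHg replicate 4 and MeHg replicate 5, against 16.0 to 416 with a median of 46.3 in the others. Its difference was 5.43 (SE 0.86). krt15 was 5550, 1571 and 3068 against 29.5 to 307 with a median of 52.4, a difference of 5.64 (SE 0.54). The groups were far apart for both genes. krtt1c19e was 85.5, 110 and 58.9 against 0 to 3.63, and krt17 was 868, 69.7 and 95.5 against 0 to 16.7, so krt17 was uneven among the keratin-rich libraries. krt97, krt96 and krt1-19d completed the 9. Except for krt96, the 9 are also members of the surface or basal list described next, so those list counts are no separate support. The simple-epithelium pair krt8 and krt18, which glia and vessels of fish also use, overlapped between groups. krt8 was 3645, 3221 and 1486 against 763 to 3779, and krt18 was 1891, 1048 and 635 against 256 to 1927. krt94 and krt222 overlapped as well.

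Most measured genes of the surface layer came along with krt5. The table held 19 listed surface genes, of which 15 passed the filter, 11 of them only through the keratin-rich libraries. Of the 15, 14 were higher without overlap, beside 4.52% of all genes. Among them were all 4 that passed through other libraries as well. icn was 6011, 3456 and 3814 against 151 to 1072 with a median of 193. Its difference was 4.13 (SE 0.51), and control replicate 5 was the highest of the other libraries. icn2, a related gene, was 561, 198 and 615 against 0 to 50.9. The envelope protein gene evpla (envoplakin) was 284, 248 and 584 against 0 to 21.8. The tight-junction gene cldnb (a claudin) was 760, 408 and 628 against 2.09 to 41.2, and cldne was 603, 206 and 89.7 against 1.23 to 23.0. The membrane protease gene tmprss13b was at 0 in 6 of the 8 other libraries and at 210, 120 and 73.6 in the keratin-rich ones. The surface keratin cyt1 did not follow the rest: it was 3.13, 4.97 and 1.34 in the keratin-rich libraries and 0 to 1.85 in the others, under 3 fragments in 10 of the 11 libraries, and it did not pass the filter.

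Genes of the basal layer and of its anchorage to the basement membrane came along too. Of 20 listed basal genes all 20 passed the filter, 6 of them only through the keratin-rich libraries. Without overlap 14 were higher, beside 4.52% of all genes. Apart from krt5, which set the groups, 8 of the 13 that passed through other libraries as well were higher. The given marker krt91 is among the 8. tp63, the transcription factor that maintains basal keratinocytes, was 225, 90.7 and 303 against 2.29 to 16.7 with a median of 7.76. Its difference was 4.54 (SE 0.57). The hemidesmosome collagen gene col17a1b was 813, 329 and 530 against 1.48 to 27.9, and its copy col17a1a was 87.0, 26.1 and 155 against 0 to 2.09. These anchoring collagens were thus far apart between the groups. The hemidesmosome integrin itgb4 was 670, 425 and 850 against 71.1 to 144, a difference of 2.47 (SE 0.24), and its partner itga6b was 505, 277 and 731 against 71.3 to 146. Every other library held both integrins above 70, unlike the anchoring collagens. The claudin cldni was 622, 206 and 347 against 1.34 to 35.5. Among the members that overlapped, the laminin gene lama5 was 96.3, 145 and 70.3 against 81.5 to 129.

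**Figure D3:**
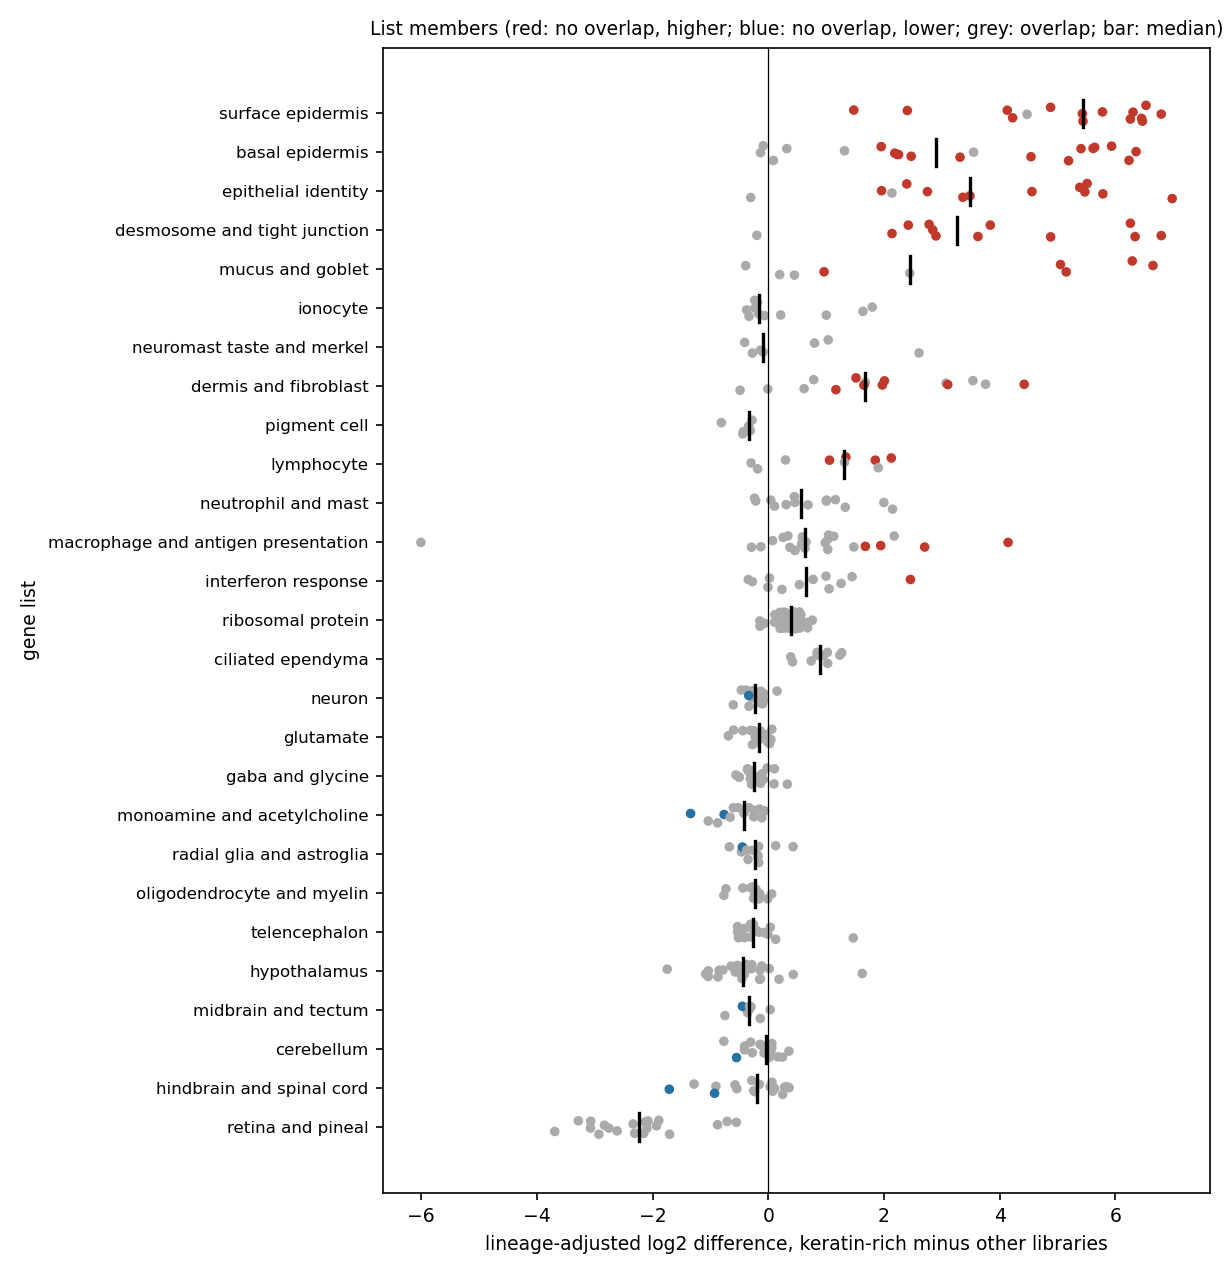
Each row is a gene list and each point a list member that passed the filter, placed by its lineage-adjusted log2 difference between keratin-rich and other libraries; red points do not overlap and are higher, blue points do not overlap and are lower, and bars are medians. Many members of the epidermal lists passed the filter only through the keratin-rich libraries, so the place of those points to the right is partly set by the filter; the median of the ionocyte list is -0.16 and that of the neuron list -0.23.

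Genes of general epithelial identity came along with krt5. Of 13 tested members 11 were higher without overlap, beside 4.52% of all genes. Of the 11, 7 were tested only through the keratin-rich libraries and 4 were among the 6 others. epcam, an adhesion molecule of epithelial cells, was 729, 676 and 676 against 0 to 30.29 with a median of 3.75. Its difference of 6.98 (SE 0.87) was the largest among higher genes with a symbol outside the clone-style names. The epithelial splicing regulators esrp1 and esrp2 were 214, 127 and 327 against 0 to 9.69, and 166, 70.3 and 74.3 against 0 to 13.3. The grainyhead transcription factor grhl3 was 77.7, 62.3 and 134 against 0 to 8.48, and elf3 was 306, 62.3 and 35.5 against 0 to 12.0. epcam was nearly equal in the 3 keratin-rich libraries, whereas elf3 was several times higher in control replicate 4. tfap2a, a transcription factor used by epidermis and by neurons, overlapped at 230, 265 and 268 against 217 to 466.4.

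Desmosomes and tight junctions, which join epithelial cells, showed 11 of 12 tested members higher without overlap, beside 4.52% of all genes. Of the 11, 4 were tested only through the keratin-rich libraries and 7 were among the 8 others. evpla and pkp3a of this list were also counted in the surface list. The plakophilin gene pkp3a was 556, 554 and 915 against 0 to 43.6, a difference of 6.79 (SE 0.87). dspa (desmoplakin) was 570, 536 and 1417 against 73.8 to 157, and perp was 952, 1208 and 1628 against 121 to 349. Among the keratin-rich libraries MeHg replicate 5 was the highest for all 3 genes. In contrast, cldnh was 538, 360 and 63.6 against 0 to 8.36, so MeHg replicate 5 was the lowest there. The other leading genes with a symbol included aqp3a, a water and glycerol channel of epithelia, at 1453, 487 and 1243 against 2.68 to 52.1. upk1a (uroplakin), oclnb (occludin), gsnb (gelsolin), klf18, sepw2b, tmem176l.4 and the muscle troponin gene tnni2a.1 completed the 24 largest, with differences of 5.78 to 6.67. tnni2a.1 was 23.3, 355 and 62.3 against 0 to 0.924, so it passed the filter only through the keratin-rich libraries. With 5 added to each scaled count in place of 1, upk1a, oclnb and klf18 had differences of 4.38, 4.44 and 4.43. Those of sepw2b and tnni2a.1 were then 4.99 and 3.995. The sizes for these genes thus depended on the value added.

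Mucus genes came along in part, and mostly among genes near the floor elsewhere. In the keratin-rich libraries agr2 was at 48.9 ± 34.1 FPKM (SD, n = 3) and muc5.1 at 6.15 ± 3.56 FPKM, against 1507 ± 662 FPKM for krt5. Of 14 listed identifiers 9 passed the filter and 5 were higher without overlap, beside 4.52% of all genes. Of these, 4 passed only through the keratin-rich libraries, where the filter favours a call of higher. The remaining 1, creb3l1, was among the 5 others. agr2, a protein-folding enzyme needed for mucin secretion, was 429, 64.6 and 306 against 0 to 4.85 with a median of 1.05. Its difference was 6.65 (SE 0.74). The gel-forming mucin gene muc5.1 was 494, 210 and 185 against 0 to 13.3, and muc5.2 was 34.2, 40.8 and 131 against 0 to 8.48. The highest of the other libraries was MeHg replicate 8 for all 3 genes. capn9, a calpain, had a difference of 5.05 (SE 0.89). creb3l1, a transcription factor of secretory cells, was 63.7, 78.2 and 84.4 against 20.6 to 51.4, a difference of 0.96 (SE 0.29). The glycosylation genes galnt7 and galnt12, which the other libraries also expressed, overlapped at differences of 0.20 (SE 0.12) and 0.45 (SE 0.39).

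Ionocyte genes did not come along as a group. None of 11 tested members was higher or lower without overlap, beside 4.52% of all genes higher and 2.19% lower. Such shares would give few calls among 11 genes, so this count alone does not set the list apart. The median difference was -0.16, beside -0.07 over all genes, and was -0.11 on library totals. The list's summed scaled count was 9950, 9433 and 10681 in the keratin-rich libraries and 9697 to 12635 in the others. This sum was carried by the ATPase genes atp1b1b, atp6v1aa, atp6ap1a and atp2b2, which all libraries expressed at over 500. The defining ionocyte genes were low in all libraries. foxi3a was 6.21, 7.93 and 0 against 0 to 1.21, foxi3b was 4.66, 22.7 and 1.34 against 0 to 27.2, and ca15a was 1.55, 3.40 and 1.34 against 0 to 1.23. The salt transporter slc12a10.2 was 4.66, 2.27 and 0.670 against 0 to 4.85. The calcium channel trpv6 was 26.4, 32.9 and 16.1 against 0 to 29.5 and overlapped. foxi3a was at 0 in 7 of the 8 other libraries and above 3 fragments in 2 of the keratin-rich ones, and at counts this low small differences were not detectable. Genes of neuromasts, taste cells and Merkel cells showed none of 7 tested members without overlap, beside the same shares over all genes.

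Below the epidermis, dermal genes were higher in part. Of 15 tested dermal and fibroblast genes 7 were higher without overlap, beside 4.52% of all genes. Of the 7, 2 were tested only through the keratin-rich libraries. lum (lumican), a proteoglycan of the skin stroma, was 166, 141 and 98.4 against 2.29 to 23.0, and col6a2 was 168, 298 and 90.4 against 11.5 to 85.7. col6a1, col6a3, col5a1, col12a1a and thbs1b had differences of 1.17 to 2.01. The fibrillar collagen gene col1a1a overlapped through control replicate 5. It was 744, 6026 and 1409 in the keratin-rich libraries, 1739 in control replicate 5 and 92.1 to 162 in the remaining 7. The dermal list summed to 4639, 18487 and 5603 against 1081 to 6404, with the highest of the others again in control replicate 5. Of 14 bone, scale and cartilage genes 2 were higher without overlap, beside 4.52% of all genes: runx2b and matn1, of which matn1 passed the filter only through the keratin-rich libraries. None of 7 tested pigment cell genes was higher without overlap, beside 4.52% of all genes. All 7 had negative differences with a median of -0.34. pmela was 4.66, 12.5 and 5.36 against 4.02 to 27.2.

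Several libraries carried further tissue signals. MeHg replicate 4 held muscle genes at a summed scaled count of 28414, against 5944 in MeHg replicate 5 and 590 to 3654 in the others. It also held pituitary hormone genes at 27428, mainly cga at 13946 and gh1 at 10003, against 152 to 633 in the other 10 libraries. Only neb among 19 tested muscle genes was higher without overlap, beside 4.52% of all genes. Positive differences were seen in 17 of the 19, with a median of 2.95, and 5 were tested only through the keratin-rich libraries. The muscle sums overlapped through control replicate 5 at 3654, and the next highest of the other libraries was MeHg replicate 2 at 1097. The muscle and pituitary lists were both highest in MeHg replicate 4. Their part in the epidermal differences was not tested. In control replicate 4 the muscle sum was 1585 and the pituitary sum 152. Ribosomal protein genes summed to 202737, 207239 and 146403 in the keratin-rich libraries and 97272 to 280365 in the others; 68 of 71 had positive differences, with a median of 0.39, and all overlapped.

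**Figure D4:**
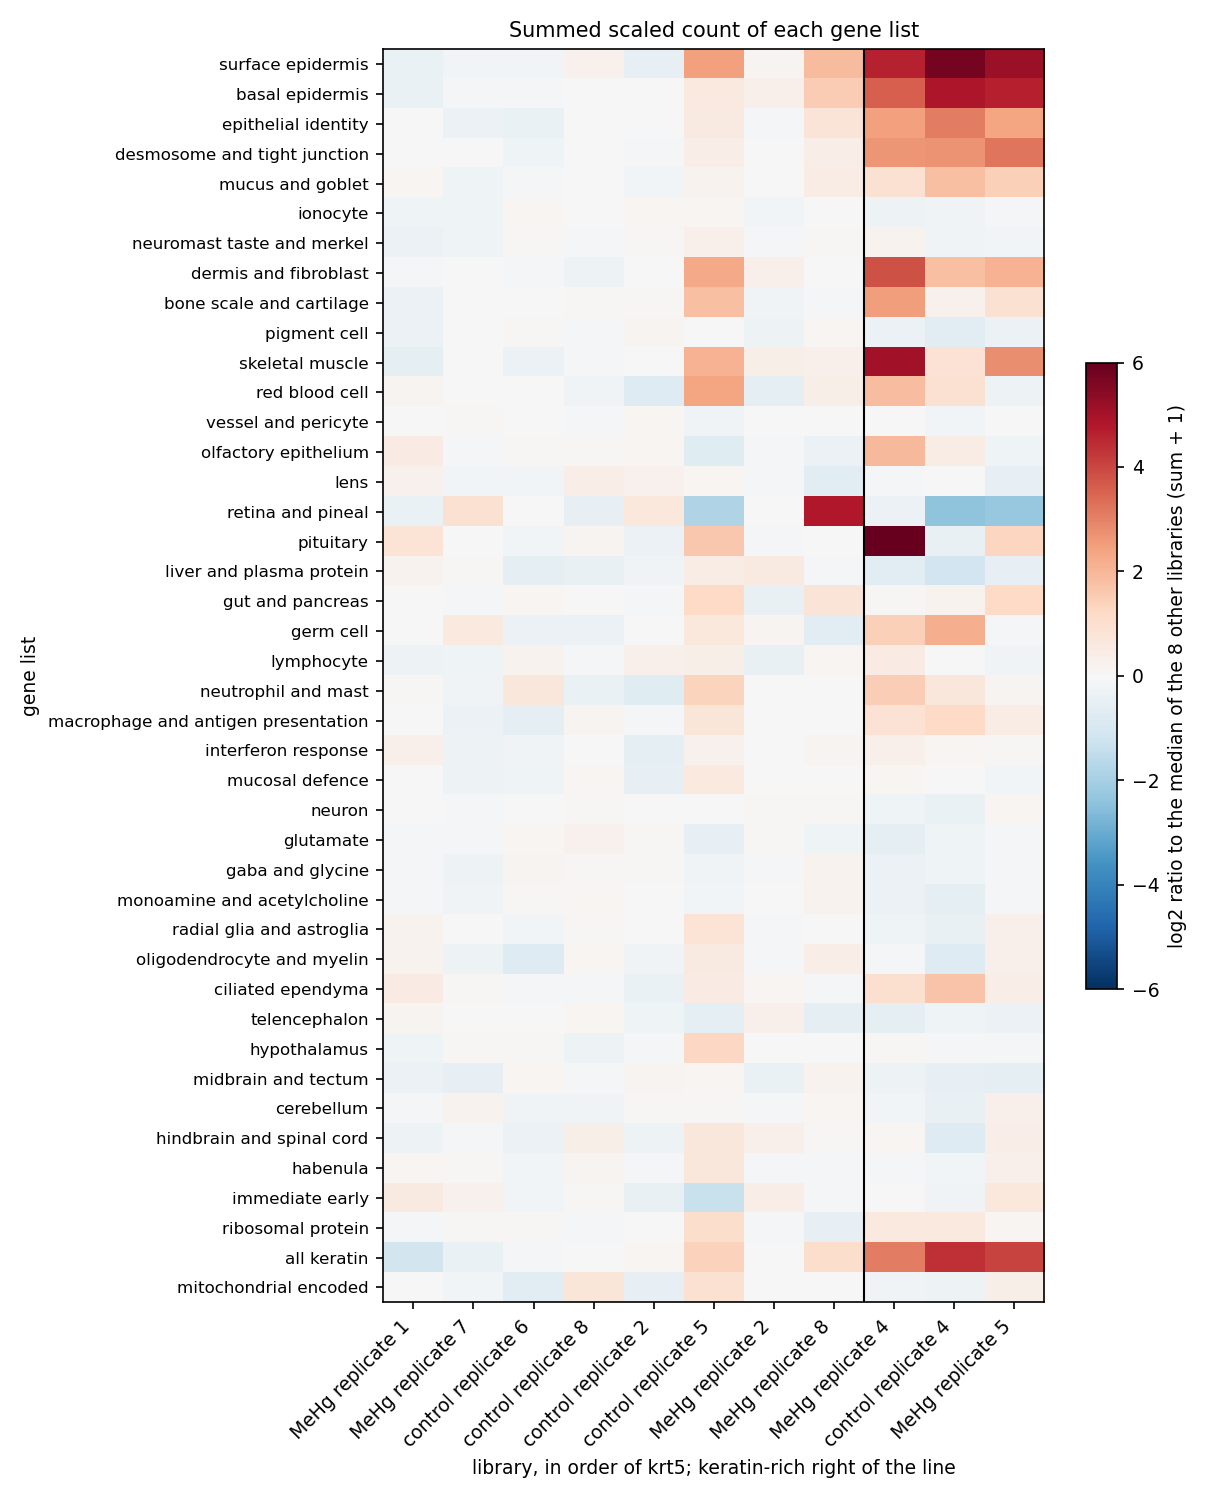
Summed scaled count of each gene list in each library, as the log2 ratio to the median of the 8 other libraries, with libraries ordered by krt5 and the keratin-rich ones to the right of the line. The epidermal lists are high in all 3 keratin-rich libraries, while muscle, pituitary, dermis and bone are highest in MeHg replicate 4, retina and pineal genes in MeHg replicate 8, and blood and ribosomal genes in control replicate 5.

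Immune genes came along only in part. Of 9 tested lymphocyte genes 4 were higher without overlap, beside 4.52% of all genes: itk, il2rb, ccr7 and ccl38.6. Of these, itk and ccl38.6 passed the filter only through the keratin-rich libraries. itk, a T-cell kinase, was 18.6, 21.5 and 18.7 against 1.48 to 8.60, and ccr7, a homing receptor, was 32.6, 24.9 and 25.4 against 7.38 to 20.6. Their levels were low and near-equal in the 3 libraries. Of 25 tested macrophage and antigen presentation genes 4 were higher without overlap, beside 4.52% of all genes, and 1 of the 4, grn2, passed the filter only through the keratin-rich libraries. Positive differences were seen in 22 of the 25. The class II antigen presentation gene mhc2dab was 1221, 1655 and 900 against 160 to 744, a difference of 1.94 (SE 0.42). The macrophage perforin gene mpeg1.2 was 91.7, 27.2 and 16.1 against 0 to 14.8, and grn2 (a granulin) was 85.5, 112 and 14.7 against 0 to 5.37. The invariant chain gene cd74a overlapped at 2292, 3585 and 3114 against 1706 to 2960. None of 14 neutrophil and mast cell genes and none of 11 mucosal defence genes was without overlap. The shares over all genes were 4.52% higher and 2.19% lower. Positive differences were seen in 12 of the 14 and 7 of the 11, with medians of 0.57 and 0.05, beside 0.63 for the macrophage list. Of 12 interferon genes 9 had positive differences, with a median of 0.66. Only mxa among them was higher without overlap, at 37.3, 23.8 and 13.4 against 1.23 to 12.07. mxa passed the filter only through the keratin-rich libraries. Red blood cell genes, a measure of blood in the sample, summed to 11455, 21633 and 4855 against 3577 to 31617 and overlapped; the part of blood in the immune differences was not tested.

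The 24 largest differences among the lower genes with a symbol ran from -1.85 to -0.76. Most genes described here are brain factors picked from the lower genes, and sox2 and otx2 lie outside the 24. The lower genes were not only brain factors. Genes such as sdha, vdac1 and mrpl38 were lower without overlap too, also on library totals and with median ratio scaling. dbx1b, an interneuron progenitor factor, was 3.11, 7.93 and 8.03 against 11.4 to 27.2, a difference of -1.71 (SE 0.32). Its value in control replicate 4 was under 3 fragments, which is 4.66 there. With 5 added to each scaled count in place of 1, its difference was -1.26. fezf2, a forebrain factor, was 24.9, 14.7 and 31.5 against 36.9 to 75.1, and isl1 was 103, 47.6 and 85.0 against 111 to 207. The groups were separate for each but close to each other for isl1. irx1b, sox21b, prdm12b, lhx5 and sox1a had differences of -1.02 to -0.83. The neural stem cell factor sox2 was 328, 275 and 294 against 353 to 495, and otx2 of the midbrain was 218, 270 and 234 against 277 to 425. Both differed by -0.45, with SE 0.12 for sox2 and SE 0.16 for otx2. isl1 and otx2 overlapped on library totals and with median ratio scaling, and sox2 overlapped on library totals, while dbx1b, fezf2, irx1b, sox21b, prdm12b, lhx5 and sox1a remained lower under both scalings. The metabolic gene ggctb was the most abundant of the 24 largest, at 4105, 4639 and 6115 against 6651 to 14564.

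Genes of monoamine neurons lay on the same side. th, the rate-limiting enzyme of dopamine synthesis, was 38.8, 20.4 and 46.9 against 48.1 to 118, and tph1a, a serotonin synthesis enzyme, was 38.8, 56.7 and 34.8 against 59.0 to 296. All 15 tested monoamine and acetylcholine genes had negative differences, also on library totals, and 14 did with median ratio scaling. Their median was -0.42, beside -0.07 over all genes. Of the 15, only th and tph1a were lower without overlap, beside 2.19% of all genes. Without overlap th was lower also with median ratio scaling but not on library totals, and tph1a under neither. General neuronal genes differed less. Of 20 tested, 19 had negative differences with a median of -0.23. Only atp1a3a, the neuronal sodium pump, was lower without overlap, beside 2.19% of all genes. Its values were 4544, 4120 and 5319 against 5367 to 7791. snap25a was 13824, 15166 and 21708 against 14225 to 21488 and overlapped. atp1a3a overlapped on library totals and with median ratio scaling.

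Most other brain lists had negative medians and few genes without overlap, to be read beside 2.19% of all genes lower and 4.52% higher. Of 17 glutamate genes none was lower without overlap, with a median of -0.16, and of 20 GABA and glycine genes none, with a median of -0.25; gad2, a GABA synthesis enzyme, was 4085, 3886 and 4570 against 3226 to 6500. Oligodendrocyte and myelin genes had a median of -0.22 and radial glia and astroglia genes -0.23, with sox2 the only lower gene without overlap among both lists. By region, the medians were -0.43 for hypothalamus, -0.33 for midbrain, -0.26 for telencephalon, -0.19 for hindbrain and -0.05 for cerebellum. The hypothalamic list, with 22 of 26 differences negative, was thus close to the monoamine list at -0.42, and both lists hold th2 and hdc. The cerebellar median was 0.00 on library totals and 0.03 with median ratio scaling, so its direction depended on the scaling. lhx1a of the cerebellar list, tac3a of the habenular list and dbx1b and isl1 of the hindbrain list were lower without overlap; lhx1a, tac3a and dbx1b were so under both other scalings. Ciliated ependymal genes had the opposite sign: all 10 tested had positive differences, with a median of 0.90, and all 10 overlapped. Immediate early genes had a median of 0.05, with 10 positive and 9 negative differences. Among brain lists 2 genes were higher without overlap: cxcr4b, a chemokine receptor of the habenular list, at 96.3, 150 and 95.7 against 34.2 to 53.1, and btg2, an immediate early gene, at 614, 583 and 791 against 140 to 520. The lists of vessel, olfactory, lens, liver, gut, germ cell and mitochondrially encoded genes held no gene without overlap, and the median of the last was -0.09.

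Photoreceptor and pineal genes also had negative differences, and 1 of the other libraries held them far above the rest. The 20 listed retina and pineal genes all had negative differences, with a median of -2.23, and all overlapped. Their summed scaled count was 367, 1511 and 396 in control replicate 4, MeHg replicate 4 and MeHg replicate 5, 550 in control replicate 5, 1392 to 3627 in 6 further libraries and 55209 in MeHg replicate 8. Among the lower genes without overlap, sv2ba, erich1, lrit3a, tph1a and arl3l2 each had their highest value in MeHg replicate 8. erich1 and tph1a overlapped on library totals and with median ratio scaling, and lrit3a on library totals. erich1 was 23.3, 19.3 and 22.1 in the keratin-rich libraries, 25.1 to 68.6 in 7 others and 2111 in MeHg replicate 8. The part of the retinal and pineal genes in these differences was not tested.

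Within the 8 other libraries krt5 spanned 33.5 to 2056, a range not used to form the groups. krt91 followed it with Pearson r = 0.968 on the log2 scale (exact two-sided permutation p = 0.000149, adjusted p = 0.00119 over 8 genes, n = 8) and Spearman rho = 0.952 (exact permutation p = 0.00114). Without the 2 libraries farthest from the median krt5, MeHg replicates 8 and 1, r was 0.961 (exact permutation p = 0.00833). The relation of the 2 keratins thus did not rest on those libraries. krt91 was a marker given with krt5 for this comparison, so their relation is no separate support for the groups. With lineage means removed r was 0.968 (exact permutation p = 0.00347, n = 8). krt91 was the only one of 8 genes past the adjusted threshold of 0.05. epcam had r = 0.772 (exact permutation p = 0.0264, adjusted p = 0.0921) and rho = 0.667 (exact permutation p = 0.0831), and r was 0.534 without the 2 farthest libraries. cldni had r = 0.731 (exact permutation p = 0.0386, adjusted p = 0.0921) and rho = 0.571 (exact permutation p = 0.151), and r was 0.353 without them. krt4 had r = 0.709 (exact permutation p = 0.0460, adjusted p = 0.0921) and rho = 0.690 (exact permutation p = 0.0694), and r was 0.763 without them. The values of epcam and cldni thus leaned on the 2 farthest libraries. With lineage means removed krt4, epcam and cldni passed the adjusted threshold too, with r of 0.732, 0.768 and 0.877 and unadjusted exact permutation p of 0.0104, 0.0104 and 0.0122. icn, agr2, col1a1a and cyt1 had r of 0.531, 0.397, 0.244 and -0.241, with adjusted exact permutation p of 0.314 to 0.554. Their rho was 0.381, 0.0244, 0.571 and -0.343. agr2 and cyt1 were near the floor in these 8 libraries, so their r could show little of a relation with krt5.

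Across all 16451 genes that reached a scaled count of 10 in 4 or more of these 8 libraries, limma gave no gene whose slope on krt5 passed an adjusted p of 0.05, which is 0%. At an unadjusted limma p under 0.05 there were 487 of the 16451, a smaller share than the 0.05 that no relation would give on average. The smallest adjusted p was that of krt91, 0.129, with a slope of 0.84 (SE 0.08) log2 units per log2 unit of krt5, and the next 2 with a symbol were cabp5a (slope 0.91, SE 0.14, limma adjusted p = 0.724) and krt97 (slope 0.96, SE 0.15, limma adjusted p = 0.759). cabp5a, a calcium-binding protein of the retina, was 481 in MeHg replicate 8 and 8.05 to 37.6 in the other 7. MeHg replicate 8 was thus at once the highest in krt5 and in retinal genes, and their contributions to a slope cannot be told apart there. Without control replicate 5 krt91 passed (limma adjusted p = 0.00436), as did the muscle creatine kinase gene ckmb and, falling, ENSDARG00000044872, which has no symbol in the tables used. Without MeHg replicate 1 krt91 alone passed (limma adjusted p = 0.0490). The genes named in the last 2 sentences beside krt91 were chosen after their values were seen.

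**Figure D5:**
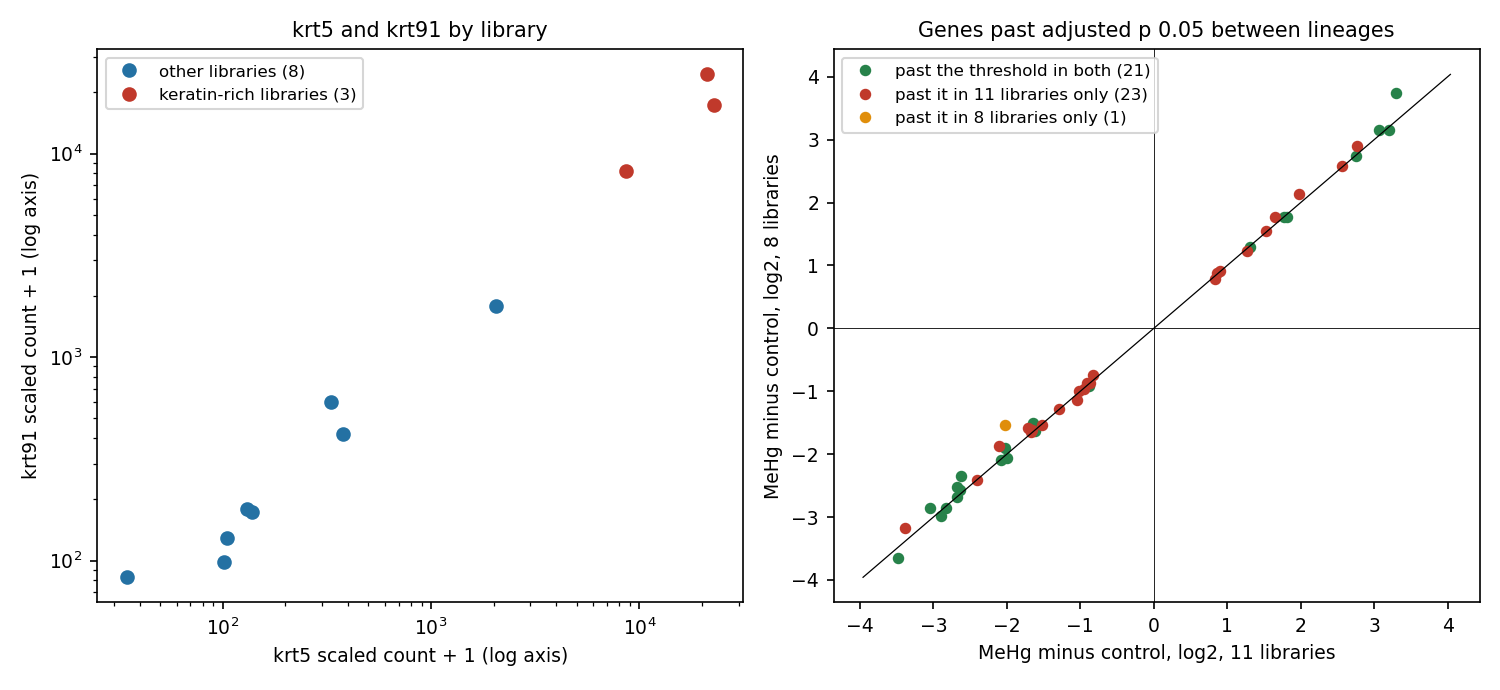
Left, krt91 against krt5 in each library (scaled count + 1, log axes), with the 8 other libraries in blue and the 3 keratin-rich ones in red. Right, log2 difference between the MeHg and control lineages in 11 libraries (x axis) and in the 8 libraries without the keratin-rich ones (y axis) for 45 genes past the threshold in either; all 44 that passed in 11 libraries keep their sign.

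The keratin-rich libraries fell in both lineages, and no skin marker passed the test between the lineages. krt5 averaged 5666 ± 9007 (SD, n = 6) in the MeHg lineage and 4342 ± 9320 (SD, n = 5) in the control lineage, a log2 difference of 1.102 (exact two-sided permutation p = 0.606 over 462 splits, adjusted p = 0.948 over 9 genes). The other 8 marker genes had exact permutation p of 0.619 to 0.948, where the smallest p the design allows is 0.0022. In the 8 other libraries the 9 exact permutation p ranged from 0.286 to 1 over 70 splits. The spread within each lineage exceeded its mean for krt5, and these p-values do not show that the lineages are alike.

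Comparing the lineages over all genes, limma called 44 of the 16364 genes that reached a scaled count of 10 in 6 or more libraries, which is 0.269%: 16 higher and 28 lower in the MeHg lineage. Without the keratin-rich libraries it called 22, which is 0.134%, of which 21 were among the 44. All 44 kept their sign in the 8 libraries, which are part of the 11 in which they were called, so this is no separate check. The number of libraries also fell from 11 to 8, and its part in the drop was not tested. With the keratin-rich group as a term in the fit, limma called 52 genes, 43 of them among the 44. Without control replicate 5 it called 30 higher and 42 lower. Of the 808 genes higher in keratin-rich libraries, 472 were in the lineage fit, and the rest did not reach its filter. None of the 472 was called between lineages, beside 0.269% of all genes, a share that would give few calls among 472. Of the 44 genes 23 lost their call in 8 libraries. Clock genes stood on both sides: nr1d2b and bhlhe41 kept it (limma adjusted p = 0.0002 and 0.00747 in 8 libraries), as did per1a and cry5, while per3 and clocka lost it. per3, a clock repressor, had a log2 difference of -3.38 (limma adjusted p = 0.00877) in 11 libraries and -3.17 (limma adjusted p = 0.289) in 8, and clocka had 1.66 (limma adjusted p = 0.00248) and 1.78 (limma adjusted p = 0.0637). Their sizes were nearly the same in both fits. The metallothionein mt2, a metal-binding protein, had -1.67 (limma adjusted p = 0.0126) and -1.64 (limma adjusted p = 0.169).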

How the data were processed

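RNA from adult F3 zebrafish brain was sequenced as paired reads of 100 bases, per the labels' protocols. The submitters' processing notes name TopHat and Cuffnorm, besides CASAVA 1.8.2 with FastQC and cutadapt, and Zv9 as the genome build. The authors deposited a table of normalised fragment signal per gene, called scaled count here: in each library 98.2% to 98.9% of values under 200 steps were whole multiples of 1 step within a tolerance of 0.01, and the step is the size of 1 fragment after scaling. The authors also deposited an FPKM table from the same libraries, used for levels per length and as an alternative with a pseudocount of 0.1. Each table holds 32674 genes, 11 columns with a library's name and 1 column without a name, which was not used. The labels list 6 libraries per lineage. Symbols came from the table for 20495 genes and from a reference name table for 1553, and 10626 were left with an identifier.

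Libraries were grouped by krt5 (5000 or more) and by labelled lineage. Differences were fitted in limma 3.58.1 under R 4.3.3 on log2(scaled count + 1), with empirical Bayes trend and robust settings and Benjamini-Hochberg adjustment at 0.05. Exact permutation tests were enumerated in Python 3.11.15 with numpy 2.4.6, and ranks came from scipy 1.17.1. Filters were a scaled count of 10 in 3 libraries for the description by krt5, in 4 of the 8 other libraries for the krt5 slope and in 6 for the lineages. Because the table is scaled and values were not all whole, the planned count models were not run. The limma fits were also run on simulated data, where genes varied independently with 1 fixed dispersion. Such data lack the tissue signals that genes of these libraries share, so this is a check of the fitting code only. Precision depends on depth, 2062482 to 7503932 implied fragments, and covers counting error only where a floor of 3 fragments is given.

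The members, the gene lists and the tests were chosen with earlier results of these data known. The text names every tested keratin and 9 fixed markers. Further genes came from those with a symbol and no overlap, up to 24 with the largest difference in each direction. Others came from the 4 most abundant members of each list, the 12 genes with the smallest slope p and up to 12 genes whose lineage call changed. Not every member of these further sets is named. All genes outside these sets were chosen after their values were seen. No coordinates or sequences were used, since the annotation at hand is of another build. Alternatives were other pseudocounts, scalings, filters and covariates, the FPKM table, and each library left out; median ratio scaling was chosen after seeing the data.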

Additional observations from a re-analysis of the deposited data

Results flagged for a closer look

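In 73 groups of values examined for a library far from the rest of its group, 13 stood out. Chance gives about 1 in 20 for separate groups, but these groups share libraries, so no excess over chance can be read from the 13. Control replicate 5 stood apart among the 8 other libraries in 10 of the 13. Its summed scaled count was 6404 for dermis and fibroblast genes, 2247 for bone, scale and cartilage genes, 3654 for skeletal muscle genes and 31617 for red blood cell genes. It also held the highest sums of radial glia and astroglia genes, 50008, hypothalamus genes, 10935, habenula genes, 2147, and ribosomal protein genes, 280365. Its col1a1a scaled count was 1739, and its total scaled count was 5717060. This total was the highest of all 11 libraries, and its part in the sums was not tested.

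MeHg replicate 8 stood apart with 55209 scaled counts over the retina and pineal genes. Within the control lineage, control replicate 4 stood apart for krt5 at 21013 and for agr2 at 429; this library was selected on krt5. The pituitary sum differed in direction between the lineages: control replicate 4 held 152, below every other control library, while the keratin-rich MeHg libraries held 27428 and 506, above every other MeHg library. This difference was not tested.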

How the results depend on the processing

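The 808 higher and 391 lower genes became 1214 and 398 with no filter and 472 and 388 with a scaled count of 10 in 6 libraries; 222 genes were lower on library totals and 200 with median ratio scaling. At 2-fold or more, 678 higher genes became 1076 with no filter and 344 with the stricter filter, and 13 lower genes became 20 with no filter and 8 with a pseudocount of 5, on library totals and with median ratio scaling. Leaving out 1 library at a time gave 828 to 1389 higher, 424 to 1381 lower, 680 to 1092 higher by 2-fold and 14 to 75 lower by 2-fold genes; a smaller keratin-rich group has fewer values to separate, and the highest counts came without MeHg replicate 5, apart from 75 without MeHg replicate 4. The median of all differences was -0.07, -0.02 on library totals and 0.00 with median ratio scaling.

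The krt5 slope gave 1 rising gene without the lineage covariate, 0 to 2 rising and 0 to 1 falling with 1 library left out; no replicate block could be fitted there, for lack of residual degrees of freedom. Of the 8 correlations, 2 passed at a pseudocount of 5 and 4 with lineage means removed, against 1; the count was 1 to 2 with 1 library left out, and r of agr2 ran from -0.249 without MeHg replicate 8 to 0.559 without MeHg replicate 2. Lineage calls, 16 higher and 28 lower, became 7 and 15 without the keratin-rich libraries and 13 to 30 and 21 to 42 with 1 library left out. With the replicate number as a block they became 9 and 11, of which 19 were among the 44. The labels do not say that a number is shared, so the numbers were not taken as pairs. Correlations of libraries numbered 2, 4, 5 and 8 in both lineages were 0.0992, 0.463, 0.193 and 0.0554. Replicate 4 was keratin-rich in both lineages, so a shared number and the keratin-rich group cannot be told apart there. The causes of these changes were not tested.

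No marker passed the threshold between lineages, and uncalled differences changed sign: krt4 to -0.21, icn to -0.39, cyt1 to -0.0884 and col1a1a to -0.72 without the keratin-rich libraries, and cldni to 0.51 with the replicate block. With 1 library left out the ranges were -0.0455 to 2.14 for krt91, -0.51 to 1.47 for krt4, -0.23 to 0.45 for cyt1, -0.47 to 0.95 for icn, -1.09 to 0.80 for cldni and -0.39 to 1.101 for col1a1a. Differences of low genes shrank at a pseudocount of 5, agr2 from 6.65 to 5.101, and that of runx2b, 1.26, became 0.40 in the FPKM table.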

Other observations

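Gene families taken by symbol showed both sides of the description. Several of their called genes, such as cldnb, grhl3, capn9, ptgs2b, sox2 and lhx1a, are also in the lists. The family counts are thus no separate support for the list counts. The families were chosen after their values were seen and carry no test. Genes without overlap are counted beside 4.52% of all genes higher and 2.19% lower. Of 17 tested claudin genes 6 were higher, of 7 S100 genes 4, of 11 annexins 3 and of 9 calpains 5, while the calpain capn1a was lower. Of these higher genes 3 claudins, 1 S100 gene, 1 annexin and 3 calpains passed the filter only through the keratin-rich libraries. anxa1a, an annexin of epithelia and leukocytes, was 1897, 843 and 634 in control replicate 4, MeHg replicate 4 and MeHg replicate 5 against 29.7 to 253, a difference of 3.97 (SE 0.56). All 4 grainyhead genes were higher, 2 of them tested only through the keratin-rich libraries. Of 20 Kruppel-like factor genes 7 were higher, 1 of them tested only through the keratin-rich libraries; klf2a was 536, 374 and 477 against 82.2 to 207. Of 12 connexin genes 4 were higher, 3 of them tested only through the keratin-rich libraries; the other was cx43.4 at 96.3, 136 and 78.3 against 23.3 to 52.3. Of 13 prostaglandin genes 5 were higher, 1 of them likewise; ptgs2a, an inducible cyclooxygenase, was 218, 63.5 and 81.0 against 14.6 to 30.29.

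On the other side, all 8 Iroquois genes and all 8 LIM homeobox genes had negative differences, with medians of -0.85 and -0.54, or -0.78 and -0.46 with median ratio scaling. Without overlap irx5a and irx1b were lower among the first, and lhx1a, lhx9 and lhx5 among the second. Of 22 Sox genes sox4a, sox21b, sox1a and sox2 were lower and none higher. The 11 Hox genes overlapped, with a median of 0.03. Of 25 glycolytic genes 4 were lower: pgam1b, eno1a, tpi1b and pgk1. eno1a, an enolase, was 4071, 3271 and 4402 against 4605 to 7343, a difference of -0.52 (SE 0.14). On library totals and with median ratio scaling irx5a, irx1b, lhx1a, lhx5, sox21b, sox1a, pgam1b and eno1a remained lower without overlap, and lhx9, sox4a, tpi1b and pgk1 overlapped.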
